A study of Mus musculus with 22 samples.

Results

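Clone C1 is 1 of 4 clonal GFP reporter lines made in mouse mpkCCD cells, an immortalised cortical collecting duct line in which the water channel aquaporin-2 is switched on by vasopressin. Its transcriptome was described here by 4 RNA sequencing libraries out of 22 in the series: 2 from cells sorted as GFP-negative and 2 from cells sorted as GFP-positive, all treated with dDAVP, a vasopressin analogue selective for the V2 receptor. They were compared with the 12 libraries of reporter clones C11, C43 and C50, each with 2 GFP-negative and 2 GFP-positive libraries and the same agent. The remaining 6 libraries came from unsorted wild-type (WT) mpkCCD cells, and the 3 of them treated with dDAVP served as a reference without a test, since the absence of a reporter clone and of sorting cannot be told apart there.

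Each line was 1 clone, so a difference between C1 and the rest is a difference between lines, and with 1 clone of 4 no exact test over clones can give a p under 0.25. Every clone group carried both the reporter and dDAVP. What drives GFP, the dDAVP dose and time of each library, and whether replicates were separate cultures are not given in the sources used here, so p-values measure only the spread between these libraries, which may be technical. Values are TPM, the share of transcript molecules that a gene takes, corrected for gene length, which keeps no record of sequencing depth. The depth is therefore unknown.

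In the renal collecting duct, vasopressin binds the V2 receptor on principal cells, raises cAMP and activates protein kinase A, which moves aquaporin-2 to the apical membrane and raises transcription of Aqp2. Principal cells are also marked by the epithelial sodium channel, the mineralocorticoid receptor and Gata3. Intercalated cells, the other main cell type of this segment, carry proton pumps and bicarbonate exchangers. Lines grown from single cells of an immortalised culture are known to differ from each other in expression.

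Of 13113 genes with a mean of at least 1 TPM over the 16 clone libraries, 2702 (20.6%) differed between C1 and the other clones at an adjusted p under 0.05 (limma on log2(TPM + 1) with GFP fraction as covariate, Benjamini-Hochberg over all genes tested). In C1, 1382 of them (10.5%) were higher and 1320 (10.1%) were lower. All 4 C1 libraries lay outside the range of all 12 others for 907 genes (6.92%), 517 above (3.94%) and 390 below (2.97%), and 870 of these were also called (6.63%), 489 higher (3.73%) and 381 lower (2.91%). The median absolute log2 difference was 0.76 among those 489 and 0.59 among those 381, and 127 and 61 of them reached a log2 difference of 1. Among all called genes 390 (2.97%) did so. The same fit with another clone in the place of C1 called 130 genes for C11 (0.991%), 185 for C43 (1.41%) and 362 for C50 (2.76%), and 183, 143 and 191 genes lay beyond the range of the other clones. With a mean fitted for each clone, so that differences among the other clones are not part of the spread, the counts were 3385 for C1 (25.8%), 858 for C11 (6.54%), 1080 for C43 (8.24%) and 1219 for C50 (9.3%). These comparisons share all 16 libraries. Without replicate 1 of the C1 GFP-positive libraries the C1 count was 1790. With the mean of each clone as 1 replicate, limma called 0 genes, with 2193 at an unadjusted p under 0.05. Of the called genes, 45 of the 1382 higher ones had a mean under 1 TPM in the other clones and 71 of the 1320 lower ones had one in C1, so that they passed the filter only through the side where they were high and had to differ. Among the genes described below these are Gata4, 9430085M18Rik, Sparc, Cdh2, Gsdmc3, Nr3c2, Rhbg, Gsto2, Oas1g, Timp3 and mt-Tl1, whose differences are given without a test. With all 770 tested genes under that mean on either side left out, 12343 remained, of which 10.8% were higher and 10.1% lower. At a mean of 1 TPM, Rpl31-ps17 lay just inside the filter at 1.00 TPM and Gpha2 just outside it at 0.996 TPM.

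One library stood apart in the measures of quality that TPM allow, replicate 1 of the C50 GFP-negative ones, with 7.87% of its TPM in ribosomal protein genes against 4.03 to 5.09% in the other 15, and without it 3780 genes were called. Genes with a TPM above 0 numbered 17177 to 24837 in C1 and 17677 to 30855 in the others. The libraries fell into 8 with at most 19556 such genes, 3 of the 4 of C1 and 5 of the 12 others, and 8 with at least 23135, and the part of this in the differences of C1 was not tested. Mitochondrial transcripts made up 1.40 to 1.57% of the TPM in C1 and 1.07 to 1.91% in the others. Pearson's r across genes between replicates was 0.976 to 0.981 in C1, 0.976 in both fractions of C11, 0.964 to 0.967 in C43 and 0.944 to 0.974 in C50, against 0.924 to 0.962 between C1 and other clones and 0.926 to 0.972 among the other clones, a description over genes that are not independent.

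Aqp2, the water channel that the line is used to study, was lower in C1 than in every library of the same fraction from the other clones. The 2 GFP-negative C1 libraries held 72.6 and 66.5 TPM, while the other GFP-negative libraries held 236 at the lowest, 1243 at the median and 1680 at the highest. The 2 GFP-positive C1 libraries held 2027 and 2008 TPM, against 2896, 4651 and 7254 at the lowest, median and highest of the others. The groups did not overlap within a fraction, but the C1 GFP-positive libraries lay above the other clones' GFP-negative ones. The difference over both fractions was −2.34 on the log2 scale (SE 0.54, limma adjusted p 0.00514), and an exact two-sided permutation of libraries within fractions gave 0.00128, the smallest p its 784 arrangements allow. It was −3.50 in GFP-negative libraries (limma adjusted p 0.00539) and −1.19 in GFP-positive ones (limma adjusted p 0.308), and the interaction did not pass the test (2.31, limma adjusted p 0.778). Fitted on the GFP-negative libraries alone, it gave a limma adjusted p of 0.0725, and with the mean of each clone as 1 replicate Aqp2 was not called. C1 had the lowest Aqp2 mean of the 4 clones in both fractions, followed by C11 with 249 and 3002 TPM. Unsorted WT cells held 2868 ± 139 TPM (SD, n = 3). In these sorted bulk libraries, fewer cells expressing a gene and less of its RNA per cell cannot be told apart.

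The GFP transcript did not show such a difference. C1 held 11.6 and 13.3 TPM in GFP-negative libraries and 1289 and 1294 TPM in GFP-positive ones. The other clones ranged from 5.31 to 17.6 TPM (median 10.8) and from 1065 to 1567 TPM (median 1327). The C1 values lay inside both ranges, and the log2 difference was 0.08 (SE 0.19, limma adjusted p 0.81, exact permutation p 0.708). GFP values inside the range of the other clones thus stood beside lower Aqp2. The Aqp2 promoter is shown because the known cAMP response of this gene acts through it. The 250 bases before its start site (RefSeq, GRCm38.p6, chr15:99578806-99579055, plus strand) hold 1 match to the cAMP response element core TGACG, read on either strand and here in capitals in the reverse orientation, 206 bases from the start.
Aqp2: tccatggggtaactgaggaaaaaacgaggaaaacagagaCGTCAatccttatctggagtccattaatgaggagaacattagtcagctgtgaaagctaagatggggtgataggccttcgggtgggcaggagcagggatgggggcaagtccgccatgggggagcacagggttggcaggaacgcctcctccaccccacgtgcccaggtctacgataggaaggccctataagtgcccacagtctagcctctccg
The same letters occur in 17.8% of the 32851 promoter windows of that length in the table and in 27.2% of the windows of tested genes, so the match is a description and does not mark a site.

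Leading genes were taken from called genes beyond the range of all 12 others, at 5 TPM or more on average. Lying apart from the other clones was thus a condition of their choice and is given as a description. Among the genes that were higher in C1, the largest difference was in Lypd2, a member of the Ly6/PLAUR family of small cell surface proteins. GFP-negative C1 libraries held 464 and 395 TPM and GFP-positive ones 314 and 334 TPM. The other clones held 2.58 to 13.99 TPM (median 11.8) and 0.80 to 9.03 TPM (median 4.24). All 4 C1 libraries stood far above all others, with a log2 difference of 5.87 (SE 0.44, limma adjusted p 2.87e-07). WT cells lay between the groups at 30.7 ± 4.97 TPM (SD, n = 3). A relative, Lypd6b, was 32.1, 31.5, 59.4 and 57.0 TPM in C1 against at most 7.41 TPM in GFP-negative and 24.9 TPM in GFP-positive libraries of the others (log2 difference 3.40, limma adjusted p 0.00299).

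Mgst1, a microsomal glutathione transferase, was 121, 145, 153 and 159 TPM in C1, given here and below in the order GFP-negative 1 and 2, GFP-positive 1 and 2. The other clones held at most 4.44 TPM in GFP-negative and 8.53 TPM in GFP-positive libraries, with medians of 1.94 and 2.02. The log2 difference was 5.56 (SE 0.45, limma adjusted p 7.86e-07), about equal in the fractions at 5.57 and 5.54, and WT cells again lay between at 18.7 TPM. Misp, an actin-binding protein of the mitotic spindle, was 25.8, 24.8, 23.1 and 27.2 TPM against at most 3.98 TPM elsewhere among the clones (log2 difference 3.54). Zbtb16, which encodes the transcriptional repressor PLZF, was 11.8, 17.8, 25.7 and 33.9 TPM against at most 2.87 and 6.33 TPM (2.63).

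Of the leading genes, 2 encode chemokines of the CXC family. Cxcl5 was 15.9, 14.7, 23.8 and 20.5 TPM in C1 and at most 2.95 TPM in any other clone library (log2 difference 3.23). Ppbp, which encodes the precursor of CXCL7, was 77.1, 76.0, 51.6 and 37.5 TPM against 6.38 to 15.98 TPM (2.46). Another such gene that was not among the leading ones, Cxcl2 of the NF-kB list, was 31.6, 17.5, 13.2 and 6.97 TPM against 4.20 to 11.5 TPM in GFP-negative and 1.57 to 4.02 TPM in GFP-positive libraries (1.61). The 3 genes lie on chromosome 5, whose C1 values are given further on. Cxcl5 and Ppbp were chosen as beyond the range of the other clones, and Cxcl2 did not overlap within a fraction. The remaining leading genes were Ifitm10 (2.45), the long non-coding RNA Bvht (2.10), the organic anion transporter Slco3a1 (2.09), the MHC class II chaperone subunit H2-DMb1 (2.05) and the actin Acta1 (2.03), each as a log2 difference with all 4 C1 libraries above all others.

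Genes present in C1 at 5 TPM or more in all 4 libraries and under 1 TPM in all 12 others were Gata4 and 9430085M18Rik. Gata4, a zinc finger transcription factor of the heart and endoderm, was 6.70, 8.48, 6.52 and 8.20 TPM in C1 and at most 0.53 TPM in the other clones (log2 difference 2.85). WT cells held 2.67 ± 0.529 TPM (SD, n = 3), between the groups. The unnamed transcript 9430085M18Rik was 13.97, 10.9, 8.59 and 7.09 TPM against at most 0.93 TPM. Both were chosen for this pattern, so their values are a description. No gene met the reverse rule.

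**Figure D1:**
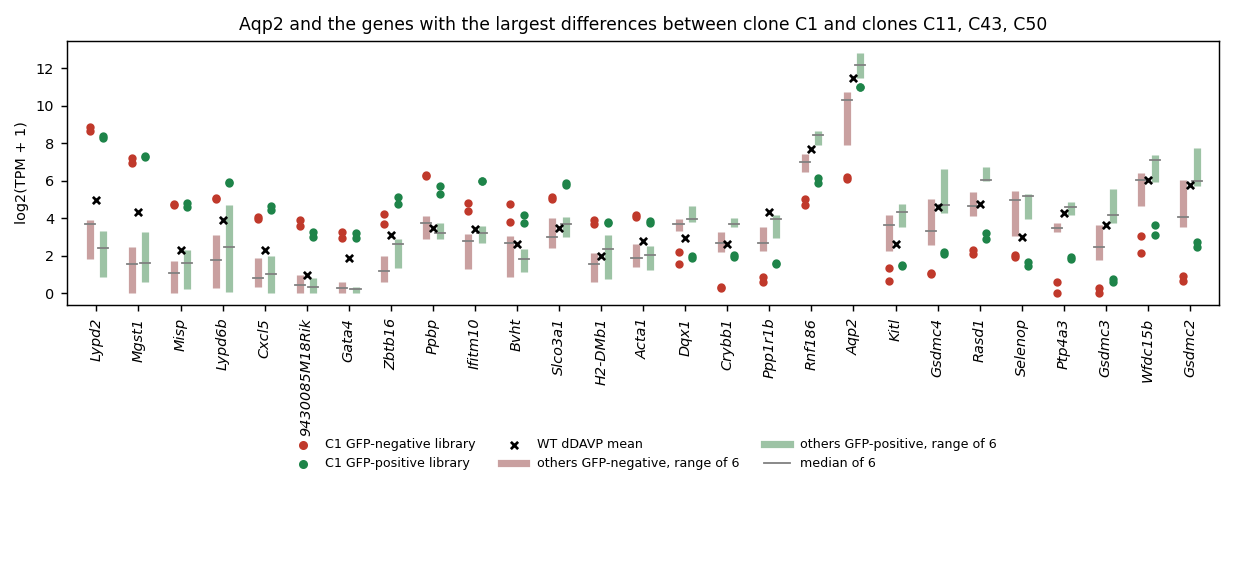
Levels of Aqp2 and the genes with the largest differences, as log2(TPM + 1) on the vertical axis. Points are single C1 libraries (red GFP-negative, green GFP-positive), pale bars the range of the 6 libraries of clones C11, C43 and C50 in each fraction with the median as a grey line, and crosses the mean of 3 WT dDAVP libraries. Lypd2 and Mgst1 stand furthest above the bars, and Gsdmc2 and Wfdc15b furthest below.

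Among the genes that were lower in C1, the largest difference was in Gsdmc2, a gasdermin C gene. Gasdermins are pore-forming proteins, and the mouse carries several near-identical gasdermin C copies side by side on chromosome 15, so how reads were divided among the copies is uncertain. Gsdmc2 was 0.54, 0.87, 5.52 and 4.4 TPM in C1 against 10.5 to 63.8 TPM in GFP-negative and 51.8 to 216 TPM in GFP-positive libraries of the others (log2 difference −3.83, SE 0.45, limma adjusted p 2.53e-05). Gsdmc3 (−3.14) and Gsdmc4 (−2.83) were also below every other library. WT cells held 52.9 TPM of Gsdmc2, inside the range of the other clones.

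Wfdc15b, a member of the WAP four-disulfide core family, was 3.39, 7.27, 11.2 and 7.59 TPM in C1 against 24.0 to 85.3 and 59.1 to 167 TPM (log2 difference −3.37, limma adjusted p 2.70e-06). Ptp4a3, the phosphatase PRL-3, was listed at 0 in 1 C1 library and at 0.52, 2.58 and 2.80 TPM in the rest, against 8.51 to 12.2 and 16.6 to 27.9 TPM (−2.91). Rasd1, a Ras-related gene named for its induction by dexamethasone, was 3.26, 3.88, 6.46 and 8.19 TPM against 16 to 41.5 and 61.6 to 106 TPM (−2.83). That none of these groups overlapped, in either fraction or across both, was a condition of their choice.

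Selenop, the plasma selenium carrier, was 3.13, 2.83, 2.20 and 1.68 TPM in C1 and 7.13 to 42.1 TPM in the other clones (log2 difference −2.91). WT cells lay at the lower edge of the other clones, at 7.05 TPM. Kitl, the ligand of the receptor Kit, was 0.58, 1.55, 1.81 and 1.72 TPM against 3.76 to 16.9 and 10.7 to 25.9 TPM (−2.59). The E3 ubiquitin ligase Rnf186 (−2.19), the protein phosphatase inhibitor Ppp1r1b (−2.16), the crystallin Crybb1 (−2.08) and the helicase-like Dqx1 (−1.98) completed the 12 leading genes in this direction. Aqp2 (−2.34) is not ranked among them because it was not beyond the range across fractions.

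For most of the genes beyond the range, WT dDAVP cells lay with the other clones, but less often than for all tested genes. The WT mean lay inside the range of the 12 other libraries for 364 of the 489 genes higher in C1 (74.4%). It did so for 336 of the 381 lower ones (88.2%) and for 96.2% of all tested genes. On the C1 side of that range it lay for 122 (24.9%) and 42 (11%). Of all tested genes the WT mean lay above the range for 2.62% and below it for 1.21%. Chromosome 8 held 87 of the 122.

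Markers of the collecting duct were carried by C1 but were lower for part of the list. Of 25 principal cell markers 19 were tested, and 2 of these, Nr3c2 among them, passed the filter through 1 side only. Of the remaining 17, 2 were higher (11.8%, against 10.8% of all such genes) and 6 were lower (35.3%, against 10.1%), with a median log2 difference of −0.18 against 0.01. Those lower were Aqp2, Fxyd4, Sgk1, Gata3, Nedd4l and Hoxb7. Of these Fxyd4 and Nedd4l lost their calls without any 1 of the 4 C1 libraries and without several others, and Sgk1 without either GFP-positive C1 library. With each chromosome centred on its own median, Fxyd4, Sgk1 and Hoxb7 were not called, at log2 differences of −1.34, −0.47 and −0.41. Nr3c2, the mineralocorticoid receptor, was 0.15, 0.29, 0.48 and 0.85 TPM against 0.49 to 4.52 and 2.96 to 6.02 TPM (log2 difference −1.39). Gata3, a transcription factor of the collecting duct lineage, was 105, 111, 186 and 155 TPM against 97.2 to 180 and 263 to 335 TPM (−0.64, limma adjusted p 0.00251), overlapping in GFP-negative libraries. Avpr2, the V2 receptor, did not pass (−0.18, limma adjusted p 0.0641), nor did Scnn1a, a subunit of the epithelial sodium channel (0.14, limma adjusted p 0.771). The adhesion protein gene Cdh16 and the glycerol channel gene Aqp3 were higher, Cdh16 losing its call once each chromosome was centred and Aqp3 without replicate 2 of the C1 GFP-positive libraries. Over all 19 tested markers 7 were lower, a count that was 4 without either replicate of the C1 GFP-positive libraries and 10 without replicate 1 of the C50 GFP-negative ones.

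Summed over the 24 principal cell markers other than Aqp2, C1 GFP-negative libraries held 3501 and 3881 TPM, inside the 2707 to 4253 TPM of the others, and GFP-positive ones held 5289 and 5394 TPM, below the 5961 to 7585 TPM of the others. Scnn1b, Kcnj1, Kcnma1, Elf5 and Ptger3 were under 1 TPM in all 16 clone libraries. Of 21 intercalated cell markers in the table, 10 were under 1 TPM in all 16 libraries, among them Foxi1, Slc4a1 and Slc26a4, and so were 16 of 20 proximal tubule markers. Of the 9 intercalated cell markers tested, Rhbg passed the filter only through the other clones, and of the remaining 8, 2 were lower (25%, against 10.1% of such genes) and 1 was higher (12.5%, against 10.8%) in C1. Without replicate 1 of the C1 GFP-negative libraries 1 of the 9 was lower and none were higher. The gene that was higher also lost its call without any 1 of the other 3 C1 libraries, and without any 1 of several libraries of C11, C43 and C50. Markers of mesenchymal cells summed to 160 and 168 TPM in C1 GFP-negative libraries (others 71.2 to 119) and to 41.0 and 37.1 TPM in GFP-positive ones (others 17.1 to 28.2). In that list 15 of 23 genes were under 1 TPM in every clone library, Vim and the fibrillar collagens Col1a1, Col1a2 and Col3a1 included, and of the 7 tested 4 passed the filter through 1 side only, Sparc and Cdh2 through C1. Of the remaining 3, Fn1 was higher, and it took a large part of the sums above, as its values further on show. Their part in the differences of C1 was not tested.

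In the cAMP branch of vasopressin signalling, from the V2 receptor to CREB, 6 of 31 tested genes were higher (19.4%, against 10.5% of all genes) and 3 were lower (9.68%, against 10.1%). Of the 6, 4 lay above all 12 other libraries (12.9% of the list, against 3.73% of all genes). Gnai2, the inhibitory G protein subunit, was 455, 489, 415 and 460 TPM against 247 to 372 and 258 to 316 TPM (log2 difference 0.64, limma adjusted p 0.00011). Prkaca, the catalytic subunit of protein kinase A, was 83.7, 106, 86.0 and 94.5 TPM against 39.6 to 79.9 and 58.1 to 74.3 TPM (0.51, limma adjusted p 0.0145). Gnai2 lies on chromosome 9 and Prkaca on chromosome 8, and 3 genes of the list were higher and 2 lower once each chromosome was centred. Gnai2 then had a difference of 0.28, and Prkaca one of 0.17 that was not called (limma adjusted p 0.258). The count of higher genes was 1 without replicate 2 of the C1 GFP-positive libraries, and 2 without their replicate 1 or without replicate 2 of the C1 GFP-negative ones. That of lower genes was 1 without replicate 1 of the C1 GFP-negative libraries and 5 without replicate 1 of the C50 GFP-negative ones. Prkaca lost its call without replicate 2 of either fraction of C1.

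DNA replication genes were among those higher in C1. Of 34 S phase genes 21 were higher (61.8%, against 10.5% of all genes) and none were lower, with a median of 0.49. Mcm5, a subunit of the replicative helicase, was 464, 464, 438 and 465 TPM against 216 to 331 and 145 to 213 TPM, without overlap (log2 difference 1.07, SE 0.14, limma adjusted p 5.50e-05). With each chromosome centred, its difference was 0.73. The replication licensing factor Cdt1 was 173, 175, 197 and 180 TPM against 96.3 to 136 and 76.0 to 111 TPM (0.78, or 0.44 with each chromosome centred). Uhrf1, which directs maintenance of DNA methylation, was 146, 161, 111 and 117 TPM against 48.2 to 129 and 28.7 to 57.2 TPM (1.09), and Rrm2, a ribonucleotide reductase subunit, 167, 188, 173 and 158 TPM against 130 to 217 and 38.9 to 61.4 TPM (0.99). Of 34 genes of G2 and M phase 5 were higher (14.7%, near the share of all genes) and none were lower, with a median of 0.35 (0.22 without replicate 1 of the C1 GFP-positive libraries). The S phase count was 10 and 11 without replicate 1 and 2 of the C1 GFP-positive libraries. The G2 and M count was 10 without replicate 1 of the C1 GFP-negative libraries and 15 without replicate 2 of the C50 GFP-negative ones, and 9 with each chromosome centred.

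By fraction, the cell cycle genes of C1 stood out in GFP-positive cells. Within GFP-positive libraries, where 11.1% of all tested genes were called (5.97% higher and 5.14% lower), 23 S phase and 25 G2 and M phase genes were higher, and all 34 of each list had a positive difference, with medians of 0.79 and 0.87. Within GFP-negative libraries, where 7.22% were called (3.61% in each direction), 3 S phase genes were higher, 1 G2 and M phase gene was lower, and the medians were 0.17 and −0.08. Summed S phase TPM was 5687 and 6046 in GFP-negative and 5619 and 5654 in GFP-positive C1 libraries, while the other clones held 4107 to 5407 and 2882 to 3911. Summed G2 and M phase TPM was 2256 and 2383, then 1691 and 1701 in C1, against 2133 to 3657 and 941 to 1087. In GFP-positive cells the C1 libraries lay above all 6 others for both lists. In GFP-negative cells they lay above all 6 others for the S phase sum and inside the range of the others for the G2 and M phase sum. With 1 C1 library of a fraction left out, the remaining one was assumed to vary like the other groups. The 3 S phase calls within GFP-negative libraries were lost without either C1 library of that fraction. Without either GFP-positive one, 7 S phase genes were called higher within that fraction, and 2 and 8 G2 and M phase genes without replicate 1 and 2. The interaction passed for 6 genes of 13113 (0.0458%; 675 at an unadjusted p under 0.05), none of them in these lists, so a difference between fractions was not called for any single member.

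**Figure D2:**
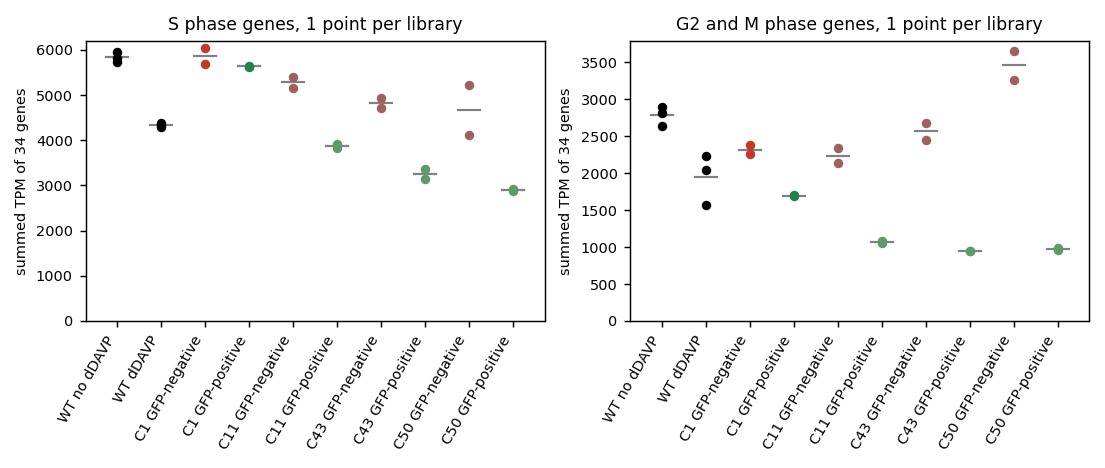
Summed TPM of 34 S phase genes (left) and 34 G2 and M phase genes (right), 1 point per library with the group mean as a line, over WT and clone groups. GFP-positive C1 libraries lie at 5619 and 5654 TPM for S phase and at 1691 and 1701 TPM for G2 and M phase, above every GFP-positive library of the other clones.

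Promoters of replication genes are shown because E2F factors are the known regulators of this group. The motif TTTNGCGC was searched on both strands, with overlapping matches allowed, in the 250 bases before each start site (RefSeq, GRCm38.p6). It was in 1.13% of all 32851 windows and 2.05% of the windows of tested genes. Of the 21 S phase genes higher in C1, 16 matched the table and 4 held it: Mcm5, Mcm6, Rfc3 and Uhrf1. Of all 34 tested S phase genes 28 matched and 5 held it. Matches are in capitals for Mcm5 (chr8:75109259-75109508, plus strand, 2 overlapping matches) and for Mcm6 (chr1:128359706-128359955, minus strand, 3 matches), another helicase subunit.
Mcm5: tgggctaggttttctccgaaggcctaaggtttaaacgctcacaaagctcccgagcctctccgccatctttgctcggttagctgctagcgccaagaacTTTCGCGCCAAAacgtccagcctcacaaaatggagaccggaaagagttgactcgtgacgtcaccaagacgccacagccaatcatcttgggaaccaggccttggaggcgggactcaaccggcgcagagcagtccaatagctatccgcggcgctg
Mcm6: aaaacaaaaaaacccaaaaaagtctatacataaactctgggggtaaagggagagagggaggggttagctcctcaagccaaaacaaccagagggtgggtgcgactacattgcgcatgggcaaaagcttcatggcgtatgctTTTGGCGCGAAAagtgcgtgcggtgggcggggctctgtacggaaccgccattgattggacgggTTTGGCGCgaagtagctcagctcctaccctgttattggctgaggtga
Mcm6 was 478, 554, 557 and 565 TPM in C1 against 246 to 498 and 332 to 421 TPM (log2 difference 0.49, limma adjusted p 0.0168), and lost its call without replicate 2 of the C1 GFP-negative libraries or either C1 GFP-positive one.

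Part of the genes that p53 is known to induce were also higher. Of 22 tested 10 were higher (45.5%, against 10.5% of all genes) and 1 was lower (4.55%, against 10.1%), with a median of 0.30. The count of lower genes was 0 without either replicate of the C1 GFP-negative libraries and 2 without replicate 1 of the C50 GFP-negative ones. Gdf15, a stress-induced secreted factor, was 1125, 1099, 1837 and 1965 TPM against 341 to 771 and 268 to 763 TPM (log2 difference 1.72, limma adjusted p 0.000618). With each chromosome centred, its difference was 1.38. Cdkn1a, the cell cycle inhibitor p21, was 1097, 974, 983 and 901 TPM against 712 to 874 and 414 to 642 TPM (0.61, limma adjusted p 0.00128). Ccng1 (1.00), Plk2 (0.85) and the death receptor gene Tnfrsf10b (0.89) likewise lay above all 12 other libraries, and Phlda3 (1.26) above all of the same fraction. Higher levels of this cell cycle inhibitor thus stood beside higher levels of replication genes in the same C1 libraries.

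Glycolysis and hypoxia genes were higher for 12 of 28 (42.9%, against 10.5% of all genes) and lower for 1 (3.57%, against 10.1%), with a median of 0.30. The count of lower genes was 0 or 2 without 1 of 9 libraries. Pkm, the pyruvate kinase gene, was 2049, 2075, 1558 and 1604 TPM against 917 to 1479 and 835 to 901 TPM (log2 difference 0.83, limma adjusted p 1.00e-05). It lies on chromosome 9, and its difference was 0.46 with each chromosome centred. Eno1, an enolase, was 537, 515, 403 and 400 TPM against 307 to 434 and 182 to 203 TPM (0.81), and Gpi1 (0.55) and Pgk1 (0.47) were higher with no overlap within a fraction. Summed over the list, C1 held 9511, 9616, 8383 and 8804 TPM, above the 6405 to 8573 TPM and 6165 to 6706 TPM of the other clones in each fraction.

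Part of the basement membrane and NF-kB genes were higher in C1. Of 24 collagen, laminin and integrin genes 8 were higher (33.3%, against 10.5% of all genes) and none were lower, with a median of 0.34. Summed over the list, C1 held 1644, 1966, 1464 and 1437 TPM, against 702 to 1697 and 1099 to 1505 TPM. Only replicate 2 of the C1 GFP-negative libraries lay above its fraction. Col4a1, a chain of basement membrane collagen, was 18.4, 20.5, 11.6 and 11.8 TPM against 3.49 to 12.5 and 0.17 to 2.01 TPM (log2 difference 2.01, limma adjusted p 0.000302), and Lamb2, a laminin chain, was 50.9, 75.01, 54.9 and 59.9 TPM against at most 28.5 and 36.3 TPM (1.40). With each chromosome centred, the differences of Col4a1 and Lamb2 were 1.67 and 1.04. Fn1, which encodes fibronectin, was 71.3, 103, 12.6 and 9.75 TPM against 28.9 to 64.0 and 0.62 to 4.96 TPM (1.32). Fn1 is also a member of the mesenchymal list and took a large part of its summed TPM given above. That sum is therefore not a separate observation, and the part of the other members was not tested. The collagen, laminin and integrin count was 5 higher without replicate 2 of the C1 GFP-negative libraries, and 2 were lower without replicate 1 of the C50 GFP-negative ones. Of 23 NF-kB genes 8 were higher (34.8%, against 10.5% of all genes) and 1 was lower (4.35%, against 10.1%), and without either replicate of the C1 GFP-negative libraries 5 were higher. Rela, the p65 subunit, was 412, 391, 309 and 293 TPM against 124 to 259 and 153 to 217 TPM (0.82, limma adjusted p 0.000703). Relb (0.72), the inhibitor Nfkbie (0.79) and Cxcl2 were higher too. The list's median of 0.23 was 0.10 without replicate 1 of the C50 GFP-negative libraries and 0.41 without replicate 2 of the C1 GFP-positive ones.

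Interferon-stimulated genes were lower in C1 for 9 of 31 and higher for none, with a median of −0.52. Without the 3 that passed the filter through 1 side only, Oas1g among them, 8 of 28 were lower (28.6%, against 10.1% of such genes), with a median of −0.47. Irf7, the factor that amplifies interferon production, was 8.96, 7.55, 5.93 and 5.36 TPM against 10.8 to 25.6 and 16.03 to 32.9 TPM, without overlap (log2 difference −1.41, limma adjusted p 0.00027). Rtp4 was 7.62, 7.99, 11.1 and 9.64 TPM against 15.1 to 87.1 TPM (−1.70, limma adjusted p 0.00516), and Usp18, a negative regulator of interferon signalling, was 9.21, 5.90, 2.47 and 2.48 TPM against 9.97 to 29.2 and 6.62 to 34.5 TPM (−1.81). Irf9, a subunit of the interferon-induced complex ISGF3, fell less (−0.76). The count of lower genes was 6 without replicate 1 of the C1 GFP-negative libraries, and 13 without replicate 1 of the C50 GFP-negative ones. Summed over the list, C1 held 511 and 488 TPM in GFP-negative and 566 and 558 TPM in GFP-positive libraries. C50 held 510 and 536, then 550 and 545 TPM, C11 held 569 to 755 TPM and C43 held 936 to 1311 TPM, while WT dDAVP libraries held 522 to 571 TPM. The summed level of C1 thus lay near that of C50 and WT, and C43 stood highest.

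The interferon response element is known to drive these genes, and its short form, GAAA repeated after 2 bases of any kind (GAAA, NN, GAAA), was searched in the same windows on both strands, overlapping matches included. It was in 2.98% of all windows and 2.38% of those of tested genes, and in 2 of the 7 matched genes that were lower in C1, against 11 of 23 matched genes of the whole tested list. Matches are in capitals for Oas1g (chr5:120887614-120887863, minus strand, 2 matches), an oligoadenylate synthetase, and Rsad2 (chr12:26456453-26456702, minus strand, 1 match), the antiviral protein viperin.
Oas1g: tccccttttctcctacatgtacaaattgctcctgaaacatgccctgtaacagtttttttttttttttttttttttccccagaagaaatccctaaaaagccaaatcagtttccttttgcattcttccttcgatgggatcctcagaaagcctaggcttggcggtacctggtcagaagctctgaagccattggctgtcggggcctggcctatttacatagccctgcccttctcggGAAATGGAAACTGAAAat
Rsad2: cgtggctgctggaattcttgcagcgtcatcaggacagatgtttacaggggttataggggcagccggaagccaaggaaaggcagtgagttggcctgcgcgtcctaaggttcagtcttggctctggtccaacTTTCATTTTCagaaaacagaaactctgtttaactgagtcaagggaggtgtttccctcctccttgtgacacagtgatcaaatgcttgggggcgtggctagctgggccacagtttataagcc
Oas1g was listed at 0 to 0.16 TPM in C1 and at 0.32 to 4.98 TPM in the other clones (log2 difference −1.23). Rsad2 was 1.44, 1.07, 2.11 and 2.27 TPM against 2.77 to 19.8 TPM (−1.47, limma adjusted p 0.0168). Both lay below all 12 others, and Rsad2 lost its call without replicate 2 of the C1 GFP-negative ones.

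Part of the positional identity genes were lower in C1. Of 22 tested Hox genes, which encode axial position, 8 were lower (36.4%, against 10.1% of all genes) and 1 was higher (4.55%, against 10.5%), with a median of −0.23. Hoxb13 was 5.82, 5.31, 3.50 and 3.88 TPM against 10.5 to 15.8 and 8.57 to 12.6 TPM (log2 difference −1.20, limma adjusted p 9.09e-06). Hoxd10 (−0.76) and Hoxb9 (−0.60) were also below all 12 other libraries. The count was 5 without replicate 1 of the C1 GFP-negative or replicate 2 of the C1 GFP-positive libraries, and also with each chromosome centred. The 1 higher gene lost its call without replicate 1 of either fraction of C1. Among 18 tight junction genes 4 were lower (22.2%, against 10.1% of all genes) and 1 was higher (5.56%, against 10.5%), with the same median as all genes (−0.01), and Cldn8, a claudin of the collecting duct, was 75.6, 74.1, 134 and 130 TPM against 84.8 to 458 and 312 to 1002 TPM (−1.82, limma adjusted p 0.00251).

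Glutathione and aldehyde metabolism genes went both ways, with 7 of 28 higher and 9 lower. Without 2 genes that passed the filter through 1 side only, Gsto2 among them, 7 of 26 were higher (26.9%, against 10.8% of such genes) and 8 lower (30.8%, against 10.1%). Gclc, the catalytic subunit of the enzyme that makes gamma-glutamylcysteine, was 105, 125, 147 and 145 TPM against 29.97 to 62.4 and 50.1 to 80.1 TPM (log2 difference 1.10). Glutathione reductase, Gsr, was higher too (0.78). Gss, which completes glutathione, was lower at 42.4, 38.4, 32.5 and 36.9 TPM against 45.5 to 70.4 and 52.1 to 82.7 TPM (−0.74). Gclc lies on chromosome 9 and Gsr on chromosome 8, where 38.7 and 36.4% of the tested genes were higher in C1, and the transferases Gstt2 (−1.06) and Gstt3 (−1.17), whose reads may be shared between near copies, lie on chromosome 10, where 44.0% were lower. Once each chromosome was centred, Gsr (0.45), Gstt2 (−0.66) and Gstt3 (−0.76) had smaller differences, 3 genes of the list were higher and 6 lower, and without replicate 2 of the C1 GFP-positive libraries 4 were higher.

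**Figure D3:**
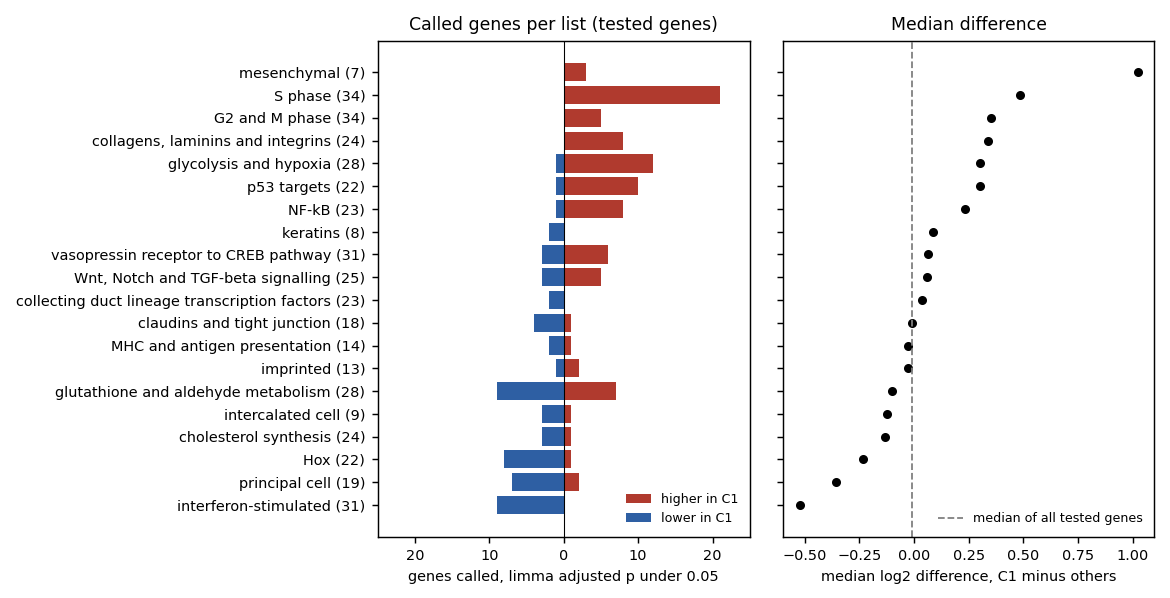
Gene lists with at least 7 tested genes: on the left the number of genes called higher (red) and lower (blue) in C1, with the number tested in brackets, and on the right each list's median log2 difference, C1 minus others, beside the median of all tested genes (dashed). S phase genes have the most calls, 21 higher, and interferon-stimulated genes 9 lower and none higher. Of all tested genes 10.5% were higher and 10.1% lower. The counts include genes that passed the filter through 1 side only. Without 3 such interferon-stimulated genes, 8 of 28 were lower.

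The C1 differences were gathered on particular chromosomes. Expression of each chromosome was summarised per library as the median log2 difference of its tested genes from the WT dDAVP mean, relative to the library's median over all chromosomes. On chromosome 9 the 4 C1 libraries lay at 0.35 to 0.39 and the 12 others at −0.01 to 0.04. On chromosome 10 they lay at −0.41 to −0.35 against 0.00 to 0.05. On chromosome 8 they lay at 0.04 to 0.07, near WT, against −0.30 to −0.24 in the others. The difference between C1 and the others was thus 0.36, −0.41 and 0.33, a linear ratio of 1.29, 0.755 and 1.25 (exact two-sided permutation within fractions p 0.00128 each, adjusted over 20 chromosomes 0.00255). That p, the smallest possible, was reached by 10 of the 20 chromosomes, so size and not p sets these apart: outside chromosomes 5, 8, 9, 10, 14 and 19 the difference lay between −0.10 and 0.04.

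Gene by gene, 276 of 713 tested genes on chromosome 9 were higher and 16 lower, 262 of 720 on chromosome 8 were higher and 11 lower, and 7 of 623 on chromosome 10 were higher and 274 lower. These chromosomes held 15.9% of the tested genes with a position, 31.4% of the called ones and 39.8% of those both called and beyond the range. On chromosome 8 the WT mean lay on the C1 side for 87 of 116 genes that were called and above the range, while on chromosome 9 this held for 3 of 119. The chromosome 8 difference therefore placed C1 with WT and the 3 other clones apart, and those of chromosomes 9 and 10 placed C1 apart. With each library centred chromosome by chromosome, an alternative chosen after seeing the data, 2043 genes were called, and the leading genes above and Aqp2 kept their calls. Centring takes 1 median per whole chromosome, so differences between parts of a chromosome remained. After it 17.2, 15.6 and 14.1% of the tested genes of chromosomes 8, 9 and 10 were called. On chromosome 19 the share was 38.6%, against 36.8% before. Misp was higher in C1 although it lies on chromosome 10.

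**Figure D4:**
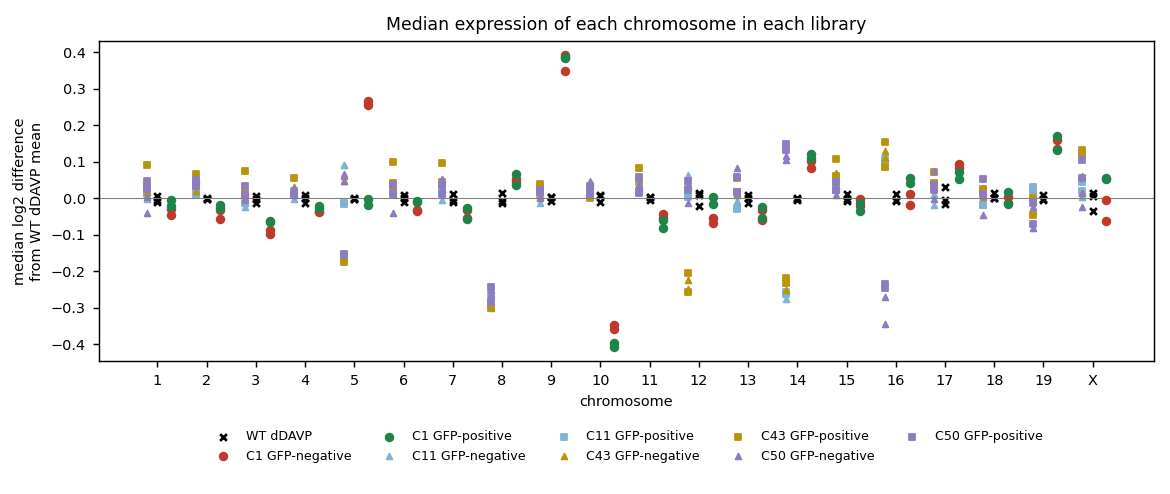
Median log2 difference of the tested genes of each chromosome from the WT dDAVP mean, 1 point per library, for C1 (red and green circles), the other clones (triangles and squares) and WT dDAVP (crosses). C1 stands above all others on chromosomes 8, 9 and 19 and furthest below them on chromosome 10. By less, it also lies below all others on chromosomes 2, 3, 4, 7, 11 and 15.

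Part of chromosome 19 showed the largest regional difference. A single least-squares split of its genes in order, made after seeing the data and given as a description, put the first 181 tested genes, up to Nxf1, at a median log2 difference of 0.64, a linear ratio of 1.56. Of these 128 were higher and 3 lower (72.4% called), and the C1 libraries lay at 0.53 to 0.65 against −0.13 to 0.15 in the others. The 306 genes from Tmem223 on had a median of −0.08, with 15 higher and 33 lower. Rela, described above, lies on this chromosome. Chromosome 17 split likewise into 225 genes up to Lemd2 at −0.20 and 453 from Hmga1 on at 0.17, which cancel in its whole-chromosome difference of 0.04.

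Chromosome 5 lay higher in GFP-negative than in GFP-positive libraries in every clone, with group means of 0.26 and −0.01 in C1, 0.09 and −0.01 in C11, 0.06 and −0.17 in C43, and 0.06 and −0.15 in C50. Its 575 tested genes from Lnx1 on had a median difference of 0.25, with 130 higher and 16 lower, against −0.10 for the 286 before. In that second stretch the GFP-negative C1 libraries lay at 0.37 and 0.35 and the GFP-positive ones at 0.08 and 0.07, against 0.04 to 0.08 and −0.19 to −0.02 in the others, so C1 was above its fraction in both. Before it they lay at 0.05, 0.06, −0.23 and −0.28, against 0.06 to 0.11 and −0.16 to 0.01 in the others. On chromosome 14 C1, at 0.08 to 0.12, lay beside C50 at 0.11 to 0.15, while C11 lay at −0.28 to −0.25 and C43 at −0.25 to −0.22. That difference of 0.23 (exact permutation p 0.0893) is therefore one that C1 shares with C50.

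**Figure D5:**
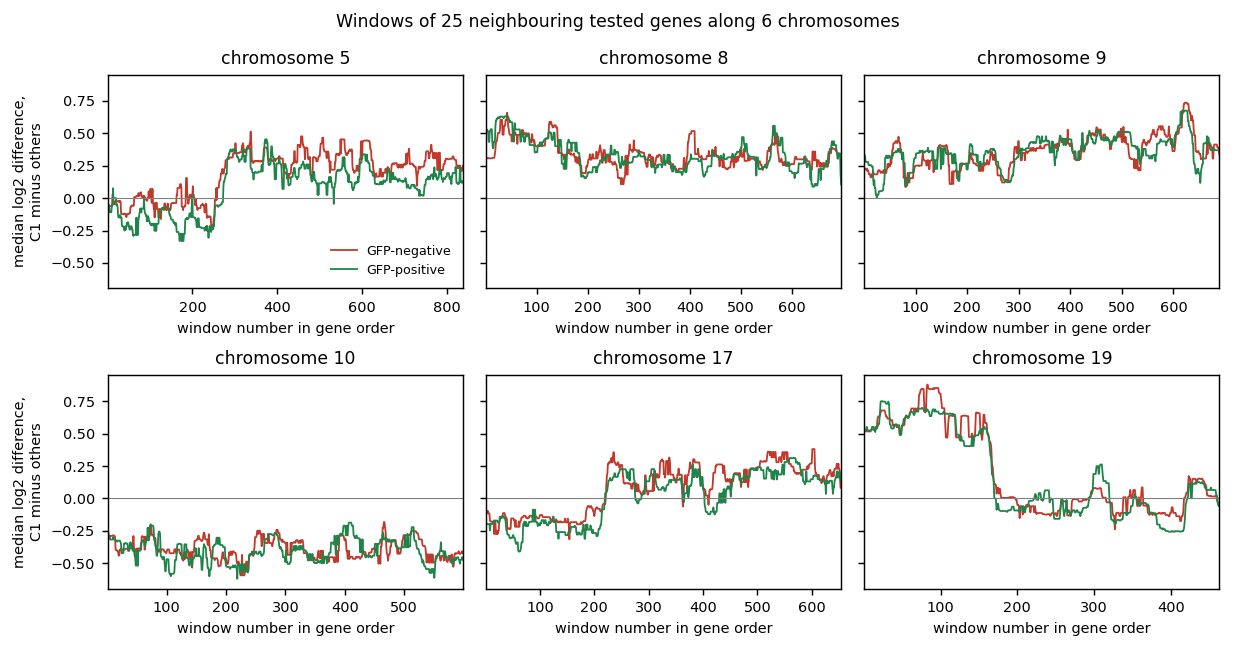
Median log2 difference, C1 minus others, in windows of 25 neighbouring tested genes in gene order along 6 chromosomes, for GFP-negative (red) and GFP-positive (green) libraries. Most windows of chromosomes 8 (536 of 696) and 9 (571 of 689) were at or above 0.25, 561 of 599 on chromosome 10 were at or below −0.25, and on chromosome 19 the difference ended after the first stretch.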

How the data were processed

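RNA was made into libraries with the SMART-Seq HT and Nextera XT kits and sequenced in pairs, per the labels' protocols. The authors deposited one table of TPM per gene and library, made with STAR and RSEM per the submitters' processing notes. Versions, genome build and annotation are not given in the sources used here. TPM keep no depth, so no count test or interval was possible. Lines sharing a symbol (79 symbols) were summed, and 1 column of values of no sample was not used. The authors also deposited the ratio of their group means and a signal column, the highest value of each line; neither was used.

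Here log2(TPM + 1) of the 13113 genes with a mean of at least 1 TPM over the 16 clone libraries was fitted with limma 3.58.1 (R 4.3.3, statmod 1.5.0) with a mean-variance trend, GFP fraction as covariate, called at an adjusted p under 0.05. Such folds understate changes of low genes. Single values and chromosome medians used an exact permutation within fractions. The scripts were tested on simulated data. Named genes were Aqp2 and GFP, the 12 largest differences each way among genes called, beyond the range and at 5 TPM or more on average, without provisional symbols, the genes on in C1 and off elsewhere, called members of 25 gene lists and the genes at the filter's edge. Genes were placed on chromosomes by Ensembl ID with GENCODE M21 (98.6% of tested genes), and promoters came from RefSeq GRCm38.p6. Alternatives covered pseudocount, filter, scaling, model, block, fraction, clone and each library. The members and lists were chosen with earlier results of these data known. Of the genes that passed the interaction test, 2 are not reported here.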

Additional observations from a re-analysis of the deposited data

Results flagged for a closer look

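For 6 genes the C1 difference was not equal in the fractions, by limma's interaction term over all 13113 genes, and 4 of them are described here; the value given is the difference in GFP-positive minus that in GFP-negative libraries on the log2 scale. Timp3, an inhibitor of matrix metalloproteinases, was 0.02 and 0.92 TPM in GFP-negative C1 libraries against 9.08 to 26.9 TPM in the others, and 1.08 and 0.69 TPM against 0.09 to 1.44 TPM in GFP-positive ones (interaction 3.82). Its C1 mean was 0.678 TPM and that of the others 10.5 TPM, so it passed the filter only through the other clones and is given without a test. Unsorted WT dDAVP cells held 23.3 ± 2.16 TPM (SD, n = 3). The GFP-negative C1 libraries thus had the low level that GFP-positive cells of all clones had. Ctsw, a cathepsin, went the other way, at 29.2 and 23.3 TPM in GFP-negative C1 libraries against 0.86 to 4.22 TPM, and 0.21 TPM in both GFP-positive ones against at most 0.68 TPM (interaction −3.22, limma adjusted p 0.0458). Over the alternatives, Ctsw kept its call in 10 of 26 fits, and in 4 of the 16 that each left out 1 library.

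Spc24, a subunit of the kinetochore's NDC80 complex, was 170, 161, 129 and 138 TPM in C1, against 152 to 251 TPM in GFP-negative and 43.3 to 62.0 TPM in GFP-positive libraries of the others (interaction 1.52, limma adjusted p 0.0458). In GFP-positive cells the C1 libraries lay above all other clones, and in GFP-negative cells they did not. This call was kept in 6 of 27 alternative fits, and in 1 of the 16 without 1 library.

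The mitochondrial tRNA mt-Tl1 was 146 and 46.5 TPM in GFP-negative C1 libraries and listed at 0 in the other 14 clone libraries (interaction −6.39). It reached the mean of 1 TPM only through those 2 libraries, so the fitted value rests on zeros and is given without a test. WT dDAVP libraries listed 38.7, 0 and 0 TPM. Values of 0 and far above it among replicates of 1 group leave its level uncertain.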

How the results depend on the processing

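The count of called genes (2702) and of those also beyond the range (870) depended most on what counted as a replicate. With clone means as replicates both were 0 in limma, with 2193 genes at an unadjusted p under 0.05 and 2702 by the fit over libraries. With a minimum log2 change of 1 they were 390 and 188, in GFP-negative libraries alone 185 and 185, in the 8 libraries with fewer genes detected 413 and 355, and in the 8 with more 378 and 313. GFP-positive libraries alone gave 1897 beyond the range, the range within each fraction 1710, and leaving out clone C50 1696. The interaction count of 6 was 1 with a pseudocount of 0.1, 13 without a filter, 12 with quantile normalization, 2 with the replicate block, 139 with each clone and fraction given its own mean, and 32 without clone C50. On chromosome 14 the difference was 0.35 without C50 (exact p 0.00444), and on chromosome 17 it was 0.020 in the 8 libraries with fewer genes detected (exact p 0.333). The cause of these changes was not tested, except that fewer libraries, or clones, entered several of the fits. Leaving out 1 library gave 1790 (without replicate 1 of the C1 GFP-positive libraries) to 3780 called genes (without replicate 1 of the C50 GFP-negative ones), 862 to 1193 beyond the range, 2 to 21 for the interaction, and differences of 0.14 to 0.16, 0.32 to 0.33, 0.35 to 0.38, −0.41 to −0.40, 0.21 to 0.25, 0.04 to 0.05 and 0.16 to 0.18 on chromosomes 5, 8, 9, 10, 14, 17 and 19. Replicate numbers did not pair the libraries (correlations of −0.15 to 0.25 between C1 and other clones, and of 0.015 to 0.203 between the fractions of a clone), and the replicate block as covariate gave 2630 and 867, as random block 2318. Of 6438 refits of 175 named genes that were called, 5226 kept the call and direction, 1210 lost the call (175 with clone means, 148 of 175 in GFP-negative libraries alone, 138 of 173 and 120 of 175 in the 8 libraries with more and with fewer genes detected, 111 of 175 with a minimum log2 change of 1, and at most 49 in any other), and 2 reversed, Gadd45a in GFP-negative libraries (−0.027) and Sc5d with chromosomes centred (−0.0026). Without sequencing depth, low genes cannot be weighted by their counting error.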

Other observations

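Among 24 cholesterol synthesis genes, 3 were lower and 1 was higher in C1 over both fractions, shares of 12.5 and 4.17% against 10.1 and 10.5% of all genes. Within GFP-positive libraries 7 were lower (29.2%, against 5.14% of all genes) and none were higher, with a median log2 difference of −0.28. Within GFP-negative ones, where 3.61% of all genes were called in each direction, 2 of the 24 were higher. There 1 was lower (4.17%, near the share of all genes), and the median was 0.12. Over both fractions, 1 was lower without replicate 1 of the C1 GFP-negative libraries or either C1 GFP-positive one, and 7 without replicate 1 of the C50 GFP-negative ones. The count of higher genes was 0 without either C1 GFP-negative library. It was 3 and 2 without replicate 1 and 2 of the C50 GFP-negative ones. Genes of the Wnt, Notch and TGF-beta list were higher for 5 of 25 (above the 10.5% of all genes; 3 genes without replicate 1 of either fraction of C1) and lower for 3 (12%, near the 10.1% of all genes). Notch3 was 9.83, 14.1, 9.96 and 7.51 TPM in C1 against at most 6.76 TPM in the other clones (log2 difference 1.11, limma adjusted p 0.00194), Tgfb1 was 12.4, 13.96, 7.17 and 7.09 TPM against 5.04 to 8.81 and 2.11 to 3.86 TPM (0.93, limma adjusted p 0.000342), and Wnt4 (−0.62) and Bmp7 (−0.55) were lower. Lrp2, the endocytic receptor megalin, was 0.94, 1.55, 3.6 and 3.38 TPM against 4.27 to 12.9 and 6 to 15.9 TPM (−1.55, limma adjusted p 0.000642). None of the 6 tested genes of X inactivation and the Y chromosome was called, against 20.6% of all genes. With 6 genes this count cannot be told apart from that share.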
